A study of Mus musculus with 36 samples.

Results

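The genes described here are 10 genes of the T helper 1 (Th1) program of CD4 T cells. They are the cytokine receptor genes Il12rb2, Il18r1 and Il18rap, the transcription factor genes Stat4, Tbx21, Eomes, Hopx, Hlx and Runx3, and the cytokine gene Ifng. They were chosen by name, with earlier results of these data known, and each was read from the only probe set annotated with its symbol alone. They are 10 of the 22180 genes on the arrays, and all 10 were among the 13082 genes tested. A gene was tested where at least 3 samples exceeded 5.26, the median of the whole table. Values are log2 expression levels, so a difference of 1 is a doubling. Levels were compared between samples and never between genes, because probe sets differ in brightness.

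Arrays were run on 36 samples of mouse CD4 T cells in 12 groups of 3, from mice whose cells lack TRIM28 (Trim28-KO, here KO) and from wild-type littermates (WT). TRIM28 is a co-repressor that acts on chromatin through KRAB zinc-finger proteins. The 6 KO groups and the 6 WT groups were naive cells, sorted by flow cytometry, and cells stimulated for 72 h in conditions labelled Th0, Th1, Th2, Th17 and Treg. Every stimulated group was activated through CD3 by antibody fixed to the plate, with antibody against CD28 added in solution. Th0 is stimulation with no named lineage, and Treg stands for regulatory T cells. The promoter or Cre line behind the KO, the ages of the mice and the cytokines of each condition are not given in the sources used here. Whether a group's samples are from different mice is not stated, so p-values measure the spread between samples, which may be technical, and 3 arrays a group limit the precision.

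Th1 cells fight intracellular microbes and are known by their cytokine interferon gamma, the product of Ifng. Interleukin-12 acts through a receptor that contains IL12RB2 and activates STAT4, while T-bet, the product of Tbx21, drives the lineage and raises Il12rb2 and Ifng. Interleukin-18, whose receptor is built from IL18R1 and IL18RAP, adds to interferon gamma output, and RUNX3, HLX, the T-bet relative EOMES and HOPX take part in Th1 and effector cells.

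The start regions of Tbx21, Ifng, Eomes and Il12rb2 are printed because the main results turn on these genes. Each is the 250 bases before the annotated start in RefSeq's GRCm38.p6, written 5′ to 3′ on the gene's own strand, with matches to 4 short motifs in capitals.
Tbx21 (chr11:97115332-97115581, minus strand): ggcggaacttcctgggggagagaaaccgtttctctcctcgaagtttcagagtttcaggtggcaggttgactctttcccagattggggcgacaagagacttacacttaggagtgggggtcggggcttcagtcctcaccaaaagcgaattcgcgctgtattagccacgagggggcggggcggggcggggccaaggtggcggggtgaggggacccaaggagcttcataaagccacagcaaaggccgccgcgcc
Ifng (chr10:118440796-118441045, plus strand): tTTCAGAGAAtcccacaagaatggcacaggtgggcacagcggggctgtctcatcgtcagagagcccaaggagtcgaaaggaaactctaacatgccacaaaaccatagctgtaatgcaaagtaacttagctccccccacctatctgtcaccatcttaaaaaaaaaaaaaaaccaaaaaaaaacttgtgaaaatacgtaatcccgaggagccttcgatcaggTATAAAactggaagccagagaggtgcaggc
Eomes (chr9:118477939-118478188, plus strand): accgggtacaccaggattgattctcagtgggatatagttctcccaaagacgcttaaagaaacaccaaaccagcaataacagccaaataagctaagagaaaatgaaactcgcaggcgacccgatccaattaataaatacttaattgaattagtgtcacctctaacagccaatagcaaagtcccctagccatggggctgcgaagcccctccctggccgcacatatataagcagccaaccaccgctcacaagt
Il12rb2 (chr6:67376189-67376438, minus strand): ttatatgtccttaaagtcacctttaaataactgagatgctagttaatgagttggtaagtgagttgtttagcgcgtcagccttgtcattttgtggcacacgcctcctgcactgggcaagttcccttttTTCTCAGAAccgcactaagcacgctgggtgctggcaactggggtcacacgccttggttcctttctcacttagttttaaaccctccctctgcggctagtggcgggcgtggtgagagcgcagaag
In the Ifng start region the capitals mark a STAT motif (TTCNNNGAA) at position -249 and a TATA box (TATAAA) at position -30, counted from the start. In that of Il12rb2 they mark a STAT motif at position -123. The windows of Tbx21 and Eomes held no match to either, to the T-box motif GGTGTGA or to the RUNX motif TGTGGT. The motifs were searched on both strands, except the TATA box, which was searched on the sense strand, and no capitals overlap. Of 32851 RefSeq start regions of this length, 7.59% held the TATA box, 7.02% the STAT motif, 3.33% the T-box motif and 14% the RUNX motif. The 10 genes have 15 annotated starts, of which 1 held the TATA box, 3 the STAT motif, 1 the RUNX motif and 0 the T-box motif. Outside the 4 regions printed, the STAT motif lay before 1 start of Il18r1 and the RUNX motif before 1 start of Runx3. A match is a run of letters and not evidence of binding.

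Trim28 itself lay at 7.20 to 7.86 in KO naive and 5.51 to 6.58 in stimulated KO samples, against 9.31 to 9.71 in WT naive and 9.21 to 9.99 in stimulated WT samples. CD4 T cell markers were high in every group, with the mean of 6 genes between 11.1 and 11.6 in all samples. The mean of 4 natural killer cell genes lay between 3.98 and 4.66, below the table-wide median of 5.26. The CD8 genes Cd8a and Cd8b1 averaged 5.63 to 7.13 over the samples. Singly, Cd8a ran from 4.32 to 6.50 and Cd8b1 from 6.18 to 8.84. Of other lists, Ebf1, a B cell factor gene, reached 9.27 and Adgre1, a macrophage gene, 10.32. These were the highest values of lists of 5 B cell and 7 myeloid genes. Of these lists, 2 B cell and 4 myeloid genes stayed below the table-wide median in every sample. In WT cells Ebf1 rose by 4.21 in Th17 over Th0, and Adgre1 by 3.74 in Th2 over Th0. Replicates correlated across genes with a mean r of 0.990 to 0.995 within groups. Sample 1 of KO Th0 and sample 1 of KO Th1 stood apart in proliferation genes. The mean level of 9 such genes was 7.29, 9.66 and 9.20 in KO Th0 samples 1, 2 and 3, against 10.73 to 10.80 in WT Th0 samples. It was 7.78, 10.04 and 9.69 in KO Th1 samples 1, 2 and 3, against 10.69 to 10.74 in WT Th1 samples. All 9 genes fell in KO cells in both conditions. In a bulk sample, fewer cells that express a gene and less RNA per cell cannot be told apart.

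**Figure D1:**
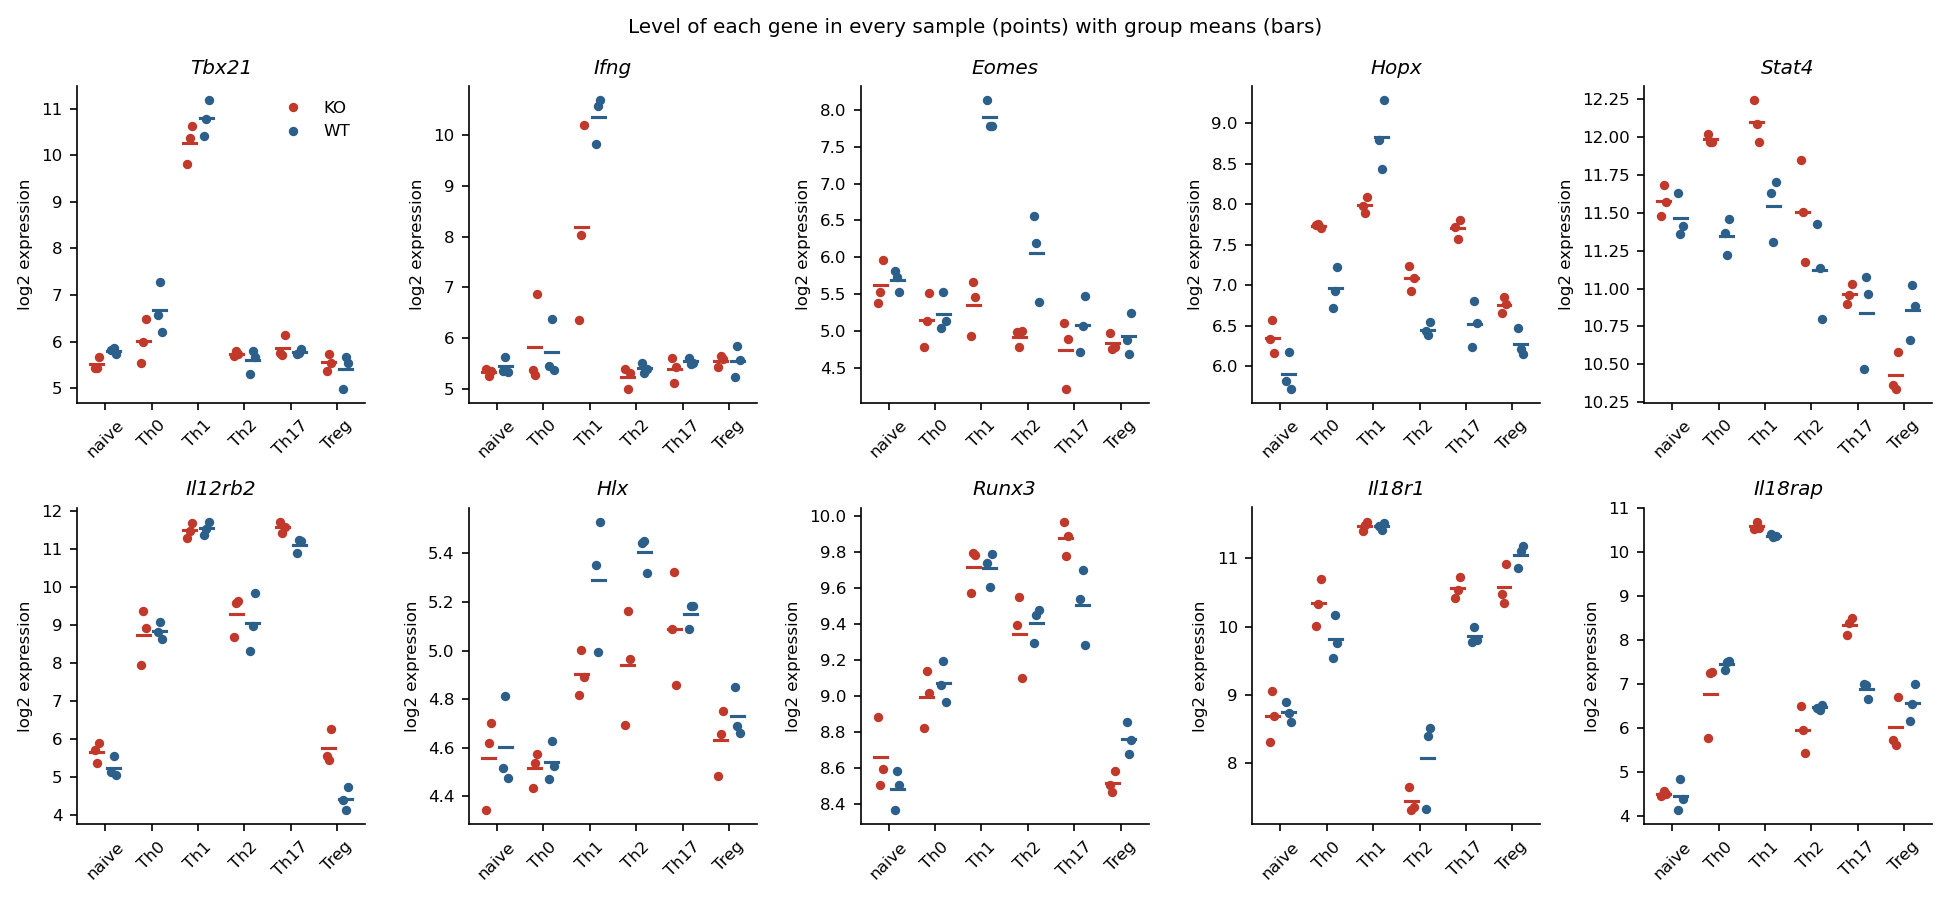
Log2 expression level (vertical axis) of each of the 10 genes in every sample (points) with group means (bars), KO in red to the left of WT in blue, by condition. The vertical axes differ between genes and do not start at 0. Tbx21 and Ifng stand high in Th1 samples, Eomes in WT Th1 samples at 7.79 to 8.13, and Il12rb2 in Th1 and Th17 samples.

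The 10 genes had different patterns over the 12 groups, as the plot of levels by sample shows. Tbx21 averaged 10.27 ± 0.41 in KO Th1 and 10.79 ± 0.38 in WT Th1 samples (SD, n = 3 each), and no other group mean exceeded 6.69. The 2 Th1 groups overlapped, and the 10 other groups formed a chain in which each overlapped its neighbor in the order of means. Ifng averaged 8.19 ± 1.93 in KO Th1 and 10.37 ± 0.46 in WT Th1 samples, with group means between 5.24 and 5.83 elsewhere, but its KO Th1 samples overlapped the KO Th0 samples. Across the 12 group means Tbx21 and Ifng correlated at r = 0.96 (0.62 by rank correlation), a description over groups whose replicates share conditions.

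The receptor genes were broader. Il12rb2 was highest in KO Th17 (11.56 ± 0.14), WT Th1 (11.53 ± 0.17) and KO Th1 samples (11.48 ± 0.20), which overlapped one another, and then in WT Th17 samples (11.10 ± 0.19). Th2 and Th0 groups followed at 8.73 to 9.29, and naive and Treg groups lay at 4.42 to 5.75. WT Treg samples were the lowest of all, below every other sample. Il18rap peaked in Th1 (10.58 ± 0.09 in KO and 10.37 ± 0.03 in WT) and was lowest in naive cells (4.52 ± 0.06 in KO and 4.47 ± 0.36 in WT). Il18r1 was high in Th1 and also in Treg conditions, and lowest in Th2 conditions at 7.45 ± 0.19 in KO and 8.08 ± 0.65 in WT.

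Among the factors, Stat4, which carries the interleukin-12 signal, had group means from 10.43 to 12.10, and its highest groups were KO Th1 and KO Th0. Runx3, with means from 8.49 to 9.88, followed Il12rb2 over the group means (r = 0.95). Hlx lay near the table-wide median in all samples, at 4.34 to 5.53, with its highest means in WT Th2 (5.40 ± 0.07) and WT Th1 (5.29 ± 0.27). It exceeded the 5.26 needed for testing in 6 samples, 5 of them from these 2 groups, so it was tested because of groups where it is high. Its calls in every comparison that uses WT Th1 or WT Th2 samples, the mean over conditions included, are descriptions. Eomes stood out in 1 group, WT Th1 at 7.90 ± 0.20, with WT Th2 next at 6.05 ± 0.60. Hopx was highest in WT Th1 (8.83 ± 0.43), followed by KO Th1, KO Th0 and KO Th17 samples at 7.70 to 7.99.

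The step from Th0 to Th1 asks which of the 10 genes the Th1 condition raises, and whether it does so without TRIM28. In KO cells 6 of the 10 genes rose in Th1 over Th0, while 8.49% of all genes tested changed in either direction (3.36% higher and 5.14% lower). In WT cells 9 of the 10 rose, while 10.8% of all genes changed (5.43% higher and 5.4% lower). The 9 include Hlx as a description only. The median difference over the 10 genes was 0.93 in KO and 2.27 in WT cells, against -0.04 in KO and -0.03 in WT over all genes. The lone exception in WT was Stat4 (0.20, SE 0.16). In KO cells Stat4 (0.11), Eomes (0.21), Hopx (0.25) and Hlx (0.39, adjusted p = 0.06) did not pass limma's test.

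**Figure D2:**
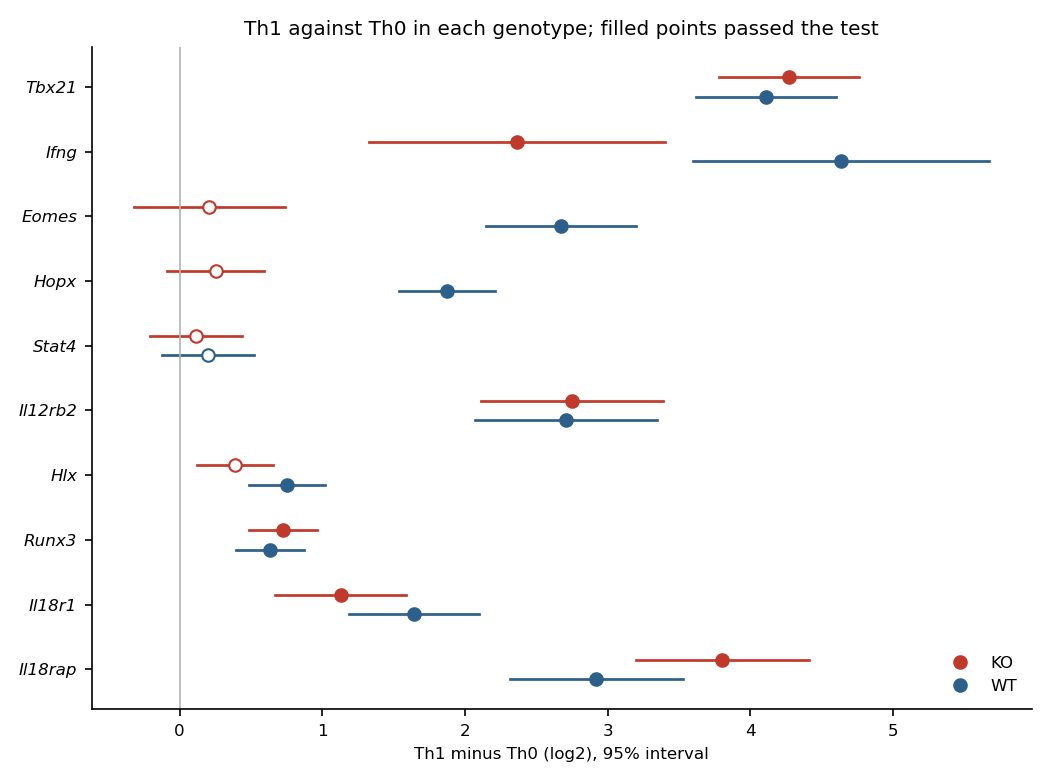
Th1 minus Th0 difference in log2 expression (horizontal axis) with 95% intervals for each gene, KO in red above WT in blue; filled points passed the test at an adjusted p under 0.05. Eomes and Hopx lie at 0.21 and 0.25 in KO cells, against 2.67 and 1.87 in WT cells, while Tbx21 lies above 4 in both.

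Tbx21 rose by 4.27 (SE 0.24) in KO and 4.11 (SE 0.24) in WT cells. Its KO Th1 samples stood at 9.82, 10.38 and 10.62 and its KO Th0 samples at 5.53, 5.99 and 6.48, and no Th0 sample of either genotype reached any Th1 sample. Over all genes tested, Th1 and Th0 samples did not overlap in 23.2% in KO and 34.5% in WT cells. The difference of the KO effect between Th1 and Th0 was 0.16 for Tbx21, with a 95% interval from -0.53 to 0.86. Il12rb2 rose by 2.75 in KO and 2.71 in WT cells (SE 0.31 each), and the interval of its difference ran from -0.86 to 0.95. Runx3 rose by 0.72 in KO and 0.63 in WT cells, and Il18r1 by 1.13 in KO and 1.64 in WT cells. Il18rap rose by 3.80 (SE 0.30) in KO and 2.92 (SE 0.30) in WT cells. Its difference of 0.88 did not pass (adjusted p = 0.63, 95% interval 0.03 to 1.74 without adjustment).

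Eomes and Hopx behaved differently from these. Eomes stood at 4.93, 5.67 and 5.45 in KO Th1 samples, at 8.13, 7.79 and 7.79 in WT Th1 samples, at 4.78, 5.13 and 5.51 in KO Th0 samples and at 5.03, 5.53 and 5.13 in WT Th0 samples. The WT Th1 samples were apart from all others, and the KO Th1 samples overlapped both Th0 groups. The KO effect on Eomes in Th1 minus that in Th0 was -2.46 (SE 0.36, 95% interval -3.21 to -1.72, adjusted p = 0.00044). Hopx stood at 7.98, 7.89 and 8.08 in KO Th1 and 8.79, 8.43 and 9.28 in WT Th1 samples, and at 7.74, 7.76 and 7.70 in KO Th0 and 6.72, 6.93 and 7.23 in WT Th0 samples. KO samples were thus above WT in Th0 and below WT in Th1, with no overlap in either condition. Over all genes tested, KO and WT samples did not overlap in 50.3% in Th0 and 52.7% in Th1. The KO effect on Hopx in Th1 minus that in Th0 was -1.62 (SE 0.23, adjusted p = 0.00032). These were 2 of the 10 genes, while 0.589% of all genes changed in this comparison (0.451% lower). With sample 1 of both KO Th0 and KO Th1 left out, the values were -2.44 for Eomes (adjusted p = 0.0025) and -1.61 for Hopx (adjusted p = 0.0032).

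Ifng was uneven. It stood at 6.35, 8.02 and 10.20 in KO Th1 samples, at 9.84, 10.57 and 10.69 in WT Th1 samples, at 5.36, 5.26 and 6.86 in KO Th0 samples and at 5.44, 6.37 and 5.38 in WT Th0 samples. KO Th1 sample 3 lay within the range of the WT Th1 samples, and KO Th1 sample 1 lay below KO Th0 sample 3. Ifng rose in Th1 over Th0 by 2.36 (SE 0.51) in KO and 4.64 (SE 0.51) in WT cells. The KO call was lost when only the KO Th1 and KO Th0 samples were fitted (adjusted p = 0.27). The KO effect in Th1 minus that in Th0 was -2.28 (SE 0.72) and did not pass (adjusted p = 0.22). With the replicate number as a block within these groups, an alternative chosen after seeing the data, it passed with an adjusted p of 0.0013, and without KO Th1 sample 3 it was -3.28 (adjusted p = 0.00082). It passed without no other single sample, and was -1.35 (adjusted p = 0.47) without KO Th1 sample 1. With sample 1 of both KO Th0 and KO Th1 left out it was -1.58 (adjusted p = 0.53). It also did not pass when only these groups were fitted (adjusted p = 0.62). Over the 3 replicate numbers, samples of KO Th1 and KO Th0 deviated together from their group means across genes (r = 0.70, 0.60 and 0.51).

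**Figure D3:**
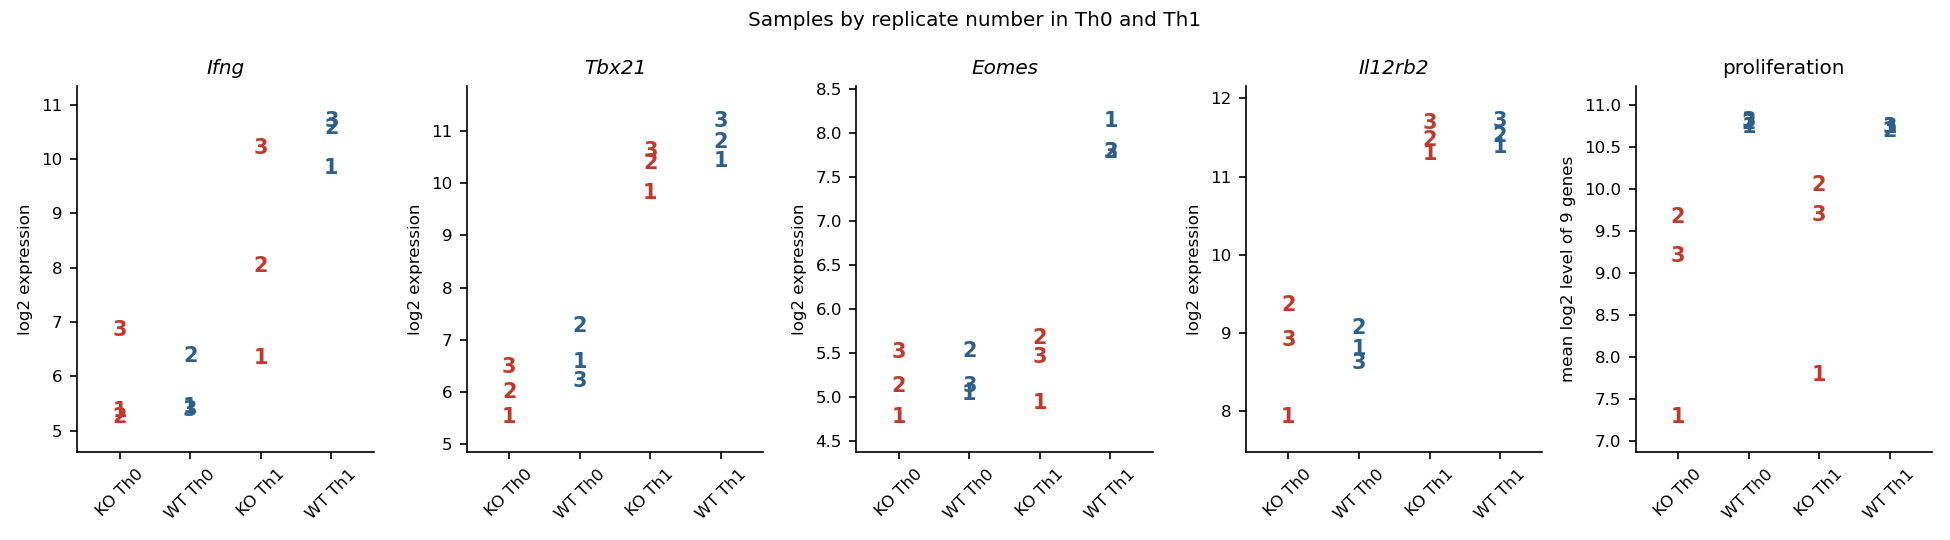
Log2 expression (vertical axes) in the 3 samples of KO Th0, WT Th0, KO Th1 and WT Th1, drawn as their replicate numbers, for Ifng, Tbx21, Eomes and Il12rb2, with the mean level of 9 proliferation genes at the right. KO Th1 sample 1 is lowest among the KO Th1 samples in all 5 panels, and for Ifng the 3 samples spread from 6.35 to 10.20. The axes do not start at 0.

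In Th1 cells, the comparison of KO with WT called 5 of the 10 genes, 4 lower and 1 higher, while 40.7% of all genes changed (23.7% lower and 17% higher). The 4 lower include Hlx as a description only. The median of the 10 genes was -0.22, against -0.03 over all genes. KO and WT samples did not overlap in 52.7% of all genes tested. Of the 10, KO lay wholly above WT in 2 genes and wholly below in 2. The difference for Eomes was -2.55 (95% interval -3.08 to -2.03, adjusted p = 3.5e-08), with every KO sample below every WT sample. That for Ifng was -2.18 (95% interval -3.21 to -1.14, adjusted p = 0.0011) with overlapping samples. It was -1.25 (adjusted p = 0.024) without KO Th1 sample 1, and it did not pass when only the Th1 samples were fitted (adjusted p = 0.084). Hopx fell by 0.85 (SE 0.16, adjusted p = 0.00017).

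Stat4 rose in KO Th1 cells. Its samples were at 12.24, 12.09 and 11.97 in KO Th1, against 11.63, 11.31 and 11.71 in WT Th1, with no overlap, a difference of 0.55 (SE 0.16, adjusted p = 0.0063). The call was lost without WT Th1 sample 2 (0.43, adjusted p = 0.056). Hlx had -0.39 (SE 0.13, adjusted p = 0.017) with overlapping samples and all KO Th1 samples under 5.26, and its call was lost without KO Th1 sample 1, WT Th1 sample 1 or WT Th1 sample 3 (adjusted p = 0.077, 0.058 and 0.13) and when only the Th1 samples were fitted (0.073). Tbx21 had -0.52 (SE 0.24) and did not pass (adjusted p = 0.084). It passed without KO Th1 sample 3 (-0.69, adjusted p = 0.036) and without WT Th1 sample 1 (-0.71, adjusted p = 0.034), and had -0.29 (adjusted p = 0.38) with sample 1 of both KO Th0 and KO Th1 left out. The receptor genes gave no call in Th1: Il12rb2 had -0.05 (95% interval -0.69 to 0.59), Il18r1 0.01 (-0.45 to 0.47) and Il18rap 0.21 (-0.39 to 0.82). Runx3 had 0.01 (-0.23 to 0.25).

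KO Th1 sample 1, with the lowest Ifng, was also lowest of the 3 in Tbx21 (9.82), Eomes (4.93), Il12rb2 (11.29) and the mean of the proliferation genes (7.78). Runx3 (9.57), Il18r1 (11.40), Il18rap (10.51) and Hlx (4.82) were lowest there too. Of the 10 genes, only Stat4 and Hopx were not lowest in that sample. Stat4 was highest there (12.24), and Hopx (7.98) was above KO Th1 sample 2 (7.89). The interleukin-12 receptor subunit gene Il12rb1 stood at 7.60, 8.63 and 8.82 in KO Th1 samples 1, 2 and 3, against 9.27 to 9.55 in WT Th1 samples. Irf8, an interferon-responsive factor gene, stood at 7.66, 8.91 and 9.42 in the KO samples, against 9.97 to 9.99 in WT. For both genes, too, KO Th1 sample 1 was the lowest, and all KO samples lay below all WT samples. Cxcr3, another gene of the Th1 pathway, went the other way and was highest in KO Th1 sample 1 (9.74). The part of this sample difference in the KO effects was not tested beyond leaving the sample out.

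**Figure D4:**
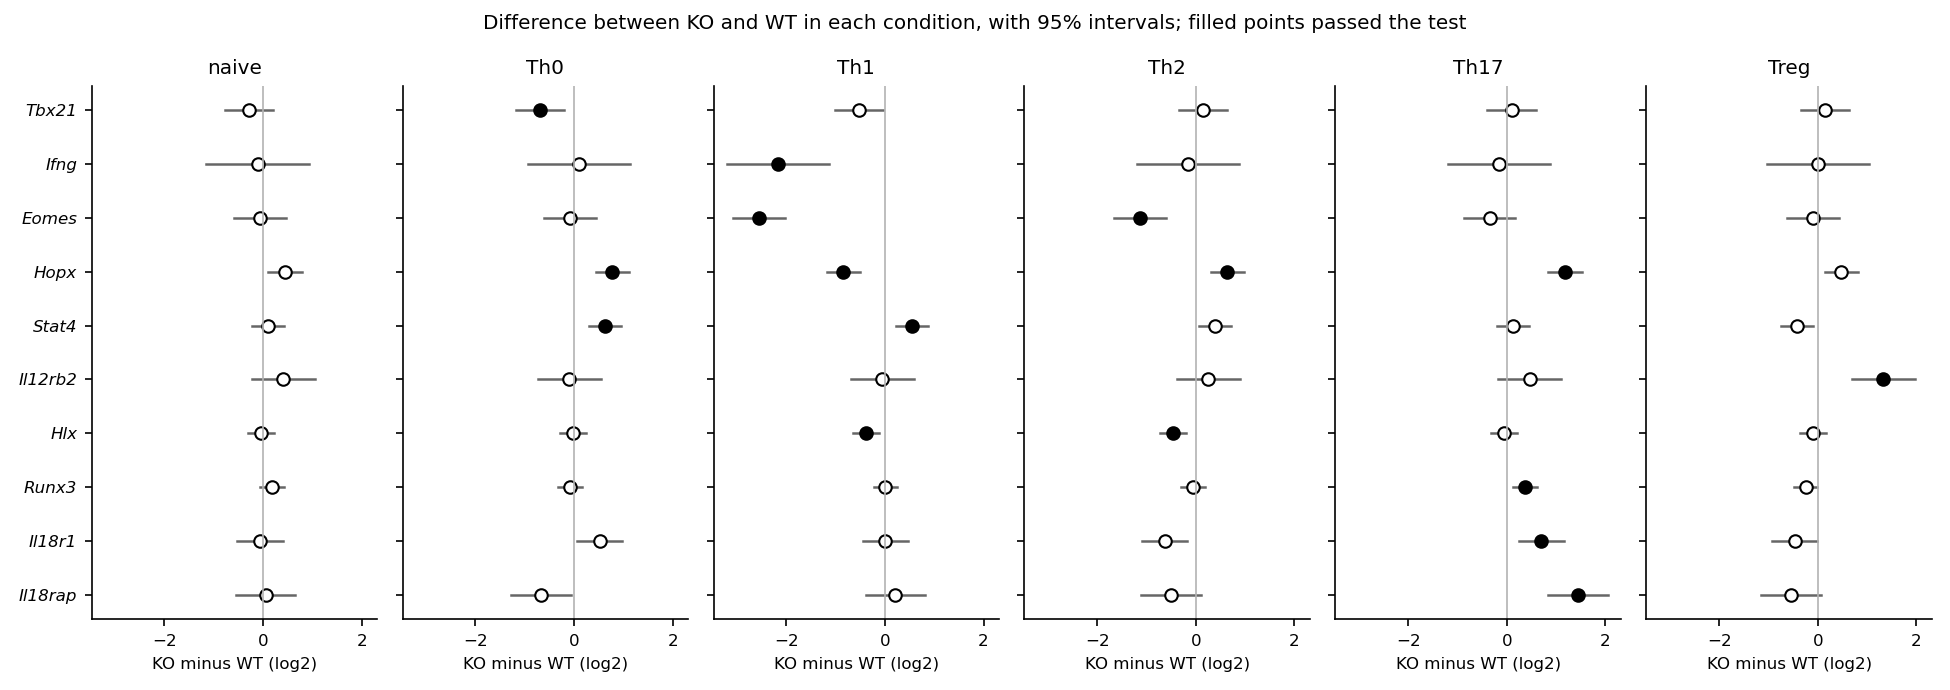
KO minus WT difference in log2 expression (horizontal axis) with 95% intervals for the 10 genes in each of the 6 conditions; filled points passed the test at an adjusted p under 0.05. In Th1, Eomes and Ifng lie at -2.55 and -2.18, and Hopx lies right of 0 in every condition except Th1.

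In naive cells limma called 0 of the 10 genes between KO and WT, while 1.15% of all genes changed. At an unadjusted p under 0.05 there was 1, Hopx (0.45, adjusted p = 0.35), as against 8.15% of all genes. By their Xist level KO naive samples 1 and 2 and WT naive sample 1 came from females and the rest from males, and with a term for sex the count was also 0. From naive to stimulated cells without a named lineage, 6 of the 10 genes rose in KO cells, where 40.8% of all genes changed (26.2% higher and 14.7% lower), and 6 in WT cells, where 53.6% changed (31.2% higher and 22.3% lower). Il12rb2 rose by 3.07 in KO and 3.58 in WT cells (SE 0.31 each), Il18rap by 2.26 and Il18r1 by 1.66 in KO cells, and Il18rap by 2.98 and Il18r1 by 1.07 in WT cells. The KO calls for Stat4 and Runx3 were weak: Stat4 (0.41, adjusted p = 0.039) lost its call without KO naive sample 1 or 3 or any KO Th0 sample, and Runx3 (0.33, adjusted p = 0.024) without KO naive sample 2 or 3 or KO Th0 sample 2 or 3, and with a term for sex (0.30, adjusted p = 0.1). Tbx21 rose in WT cells (0.89) and had 0.49 (adjusted p = 0.1) in KO cells, where it passed without KO Th0 sample 1 (0.73, adjusted p = 0.023). Ifng did not pass in either genotype, with 0.50 in KO and 0.29 in WT cells (SE 0.51 each). The KO effect in Th0 minus that in naive cells passed for 0 of the 10 genes in limma, while 18.5% of all genes passed. At an unadjusted p under 0.05 there was 1 (Stat4, 0.53), as against 30.7% of all genes.

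In Th0, 3 of the 10 genes differed between KO and WT, while 36.4% of all genes changed (16.8% higher and 19.6% lower). Hopx rose by 0.77 (SE 0.16, adjusted p = 0.00048) and Stat4 by 0.64 (SE 0.16, adjusted p = 0.0022). Stat4 stood at 12.02, 11.97 and 11.97 in KO Th0 samples, against 11.36, 11.22 and 11.46 in WT Th0 samples, with no overlap, as for 50.3% of all genes tested. Tbx21 stood at 5.53, 5.99 and 6.48 in KO Th0 samples, against 6.57, 7.27 and 6.21 in WT Th0 samples, and the groups overlapped. The difference was -0.68 (SE 0.24, adjusted p = 0.025). Its call was lost without KO Th0 sample 1 (-0.45, adjusted p = 0.2), KO Th0 sample 2 (-0.68, adjusted p = 0.053) or WT Th0 sample 2 (-0.39, adjusted p = 0.24), and when only the Th0 samples were fitted (adjusted p = 0.14). Il18r1 (0.52, adjusted p = 0.069) and Il18rap (-0.67, adjusted p = 0.077) did not pass. Il18r1 passed without KO Th0 sample 1 or WT Th0 sample 2 (adjusted p = 0.034 and 0.03), and Il18rap without KO Th0 sample 2 or 3 (0.027 each).

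In Th2, 3 of the 10 genes differed between KO and WT, while 16.4% of all genes changed (7.51% higher and 8.88% lower). The 3 include Hlx as a description only. Eomes stood at 4.990, 4.776 and 4.997 in KO Th2 samples, against 6.57, 6.19 and 5.39 in WT Th2 samples, with no overlap, as for 31.5% of all genes tested. The difference was -1.13 (SE 0.26, adjusted p = 0.0025), with all KO Th2 samples under 5.26. Hopx rose by 0.63 (SE 0.16, adjusted p = 0.0074). Hlx had -0.46 (SE 0.13, adjusted p = 0.013) with all KO Th2 samples under 5.26, a call that was lost without KO Th2 sample 1 (-0.34, adjusted p = 0.11) and when only the Th2 samples were fitted (0.072). Il18r1 had -0.63 and missed the threshold (adjusted p = 0.051), and Stat4 had 0.39 (adjusted p = 0.095). Without WT Th2 sample 1 both passed (-1.01 and adjusted p = 0.00067 for Il18r1, 0.54 and adjusted p = 0.029 for Stat4), which made 5 genes, and Stat4 also passed without KO Th2 sample 3 (0.55, adjusted p = 0.021). Of 7 myeloid genes measured, 3 were tested and 1 rose in KO Th2 cells, Adgre1 (1.10, adjusted p = 0.00065). The mean of the 7 was 5.60 to 5.88 in KO Th2 and 5.35 to 5.46 in WT Th2 samples, and its part in these results was not tested.

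In Th17, 4 of the 10 genes rose in KO cells and 0 fell, while 8.21% of all genes changed (4.03% higher and 4.18% lower). Il18rap stood at 8.11, 8.39 and 8.49 in KO Th17 samples, against 7.01, 6.97 and 6.66 in WT Th17 samples. The KO samples were all above the WT samples, a difference of 1.45 (SE 0.30, adjusted p = 0.0015). In Th17, 30.1% of all genes tested did not overlap between KO and WT. Il18r1, the gene beside Il18rap on chromosome 1, stood at 10.42, 10.53 and 10.72 in KO Th17 samples, against 9.77, 9.99 and 9.81 in WT Th17 samples, again with no overlap. Its difference was 0.70 (SE 0.22, adjusted p = 0.05, under the threshold before rounding). Hopx rose by 1.18 (SE 0.16, adjusted p = 1e-05), its largest difference in any condition, and Runx3 by 0.37 (SE 0.12, adjusted p = 0.046).

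Among markers of other cells, the myeloid gene Itgam (0.77) and the B cell gene Cd79b (0.51) rose in KO Th17 cells, each 1 of 3 tested in its list. The mean of 7 myeloid genes was 5.03 to 5.14 in KO Th17 and 4.86 to 4.95 in WT Th17 samples, and that of 5 B cell genes 5.3004 to 5.4377 in KO Th17 and 5.1631 to 5.2867 in WT Th17 samples. Their part in these results was not tested. The Runx3 and Il18r1 calls in Th17 were marginal. Runx3 lost its call without any one of the 3 KO Th17 samples, WT Th17 sample 1 or WT Th17 sample 3 (adjusted p = 0.057 to 0.31), and Il18r1 lost its call without any one of the 6 Th17 samples (adjusted p = 0.058 to 0.16). Il12rb2 did not pass in Th17, although its KO samples were all above its WT samples (0.46, adjusted p = 0.43). The KO effect in Th17 minus that in Th0 passed for Il18rap alone among the 10 genes (2.12, SE 0.42, adjusted p = 0.001), while 15.6% of all genes passed. Without KO Th0 sample 2 or WT Th17 sample 2, Runx3 passed as well (0.52 and 0.55, adjusted p = 0.035 each). Tbx21 did so without KO Th0 sample 3 or WT Th0 sample 3 (1.02 each, adjusted p = 0.043 and 0.049), and Stat4 without WT Th17 sample 1 (-0.70, adjusted p = 0.032).

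In Treg conditions 1 of the 10 genes differed between KO and WT, while 4.22% of all genes changed (1.71% higher and 2.51% lower). Il12rb2 stood at 5.55, 5.46 and 6.25 in KO Treg samples, against 4.39, 4.13 and 4.75 in WT Treg samples, with no overlap, as for 17.3% of all genes tested. The difference was 1.33 (SE 0.31, adjusted p = 0.009), and the KO samples were at the level of the naive samples (5.37 to 5.89 in KO and 5.06 to 5.55 in WT), with KO Treg sample 3 above them. All WT Treg samples lay below the table-wide median of 5.26. Itgam (1.72, 1 of 3 myeloid genes tested) and Cd8a (1.02, 1 of 2 CD8 genes) also rose in KO Treg cells. The mean of 7 myeloid genes was 5.17 to 5.29 in KO Treg and 4.89 to 5.05 in WT Treg samples, and their part in this result was not tested. The call for Il12rb2 was lost without KO Treg sample 3 (1.08, adjusted p = 0.065) or WT Treg sample 2 (1.19, adjusted p = 0.074). The KO effect in Treg minus that in Th0 passed for 3 of the 10 genes, while 27% of all genes passed. These were Il12rb2 (1.43, adjusted p = 0.017), Stat4 (-1.07, adjusted p = 0.001) and Il18r1 (-0.99, adjusted p = 0.02). The corresponding difference for Th2 passed for Il18r1 (-1.16, adjusted p = 0.019), 1 of the 10, while 10.2% of all genes passed. Il12rb2 lost its call in Treg without KO Th0 sample 1, KO Treg sample 3 or WT Treg sample 2 (1.03, 1.18 and 1.28), and Il18r1 without KO Th0 sample 3, WT Th0 sample 1, KO Treg sample 2 or WT Treg sample 3 (-0.92 to -0.81). Tbx21 passed in Treg without KO Th0 sample 3 or WT Th0 sample 3 (1.08 and 1.07). In Th2, Il18r1 lost its call without KO Th0 sample 3, WT Th0 sample 1 or WT Th2 sample 2 or 3 (-1.01 to -0.94), Tbx21 passed without KO Th0 sample 3 (1.07) and Eomes without WT Th2 sample 3 (-1.37). These differences and those for Th1 and Th17 share their Th0 samples.

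Averaged over the 6 conditions, 5 of the 10 genes differed between KO and WT, while 46.4% of all genes changed (18.9% higher and 27.5% lower). These were Eomes (-0.72), Hopx (0.44), Il12rb2 (0.38, SE 0.13, adjusted p = 0.014), Stat4 (0.23) and, as a description only, Hlx (-0.18). For Hopx the mean joins rises in Th0, Th2 and Th17 with a fall in Th1, and for Eomes it joins -2.55 in Th1 and -1.13 in Th2 with values of -0.35 to -0.07 in the 4 other conditions. Ifng had -0.42 (adjusted p = 0.1). It passed without KO Th0 sample 3 (-0.50, adjusted p = 0.039) or KO Th1 sample 3 (-0.58, adjusted p = 0.0013).

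In WT cells, the Th1 condition was set against each of the other lineages, comparisons that share the WT Th1 samples. In Th1 over Th2, 9 of the 10 genes were higher, while 37.1% of all genes changed (19.6% higher and 17.5% lower). Hlx was the exception (-0.11, 95% interval -0.38 to 0.15), and the calls for Stat4 (0.43, adjusted p = 0.034) and Runx3 (0.30, adjusted p = 0.042) were each lost without WT Th1 sample 1 or 3, WT Th2 sample 2 or 3, and for Runx3 also WT Th2 sample 1. In Th1 over Th17, 7 were higher, while 32% of all genes changed (13.4% higher and 18.6% lower), and Il12rb2 (0.44), Runx3 (0.20) and Hlx (0.14) did not pass. In Th1 over Treg, 9 were higher, while 51.1% of all genes changed (25.6% higher and 25.5% lower), and Il18r1 had 0.42 (adjusted p = 0.12). Hlx is counted among the 9 as a description only. For Il12rb2 the difference in Th1 over Treg was 7.11 (SE 0.31), measured against WT Treg samples that all lay below the table-wide median of 5.26.

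Set against WT Th0, which these comparisons share, the other WT lineages moved the 10 genes in both directions. In Th2, 3 rose and 4 fell, while 40.1% of all genes changed (17.2% higher and 22.9% lower). Hlx (0.86, a description only), Eomes (0.82) and Runx3 (0.33) rose, and Il18r1 (-1.74), Tbx21 (-1.09), Il18rap (-0.98) and Hopx (-0.51) fell. Eomes lost this call without WT Th0 sample 1 or WT Th2 sample 1 (adjusted p = 0.055 and 0.098), Hopx without WT Th0 sample 3 or WT Th2 sample 2, and Runx3 without WT Th0 sample 1 or 3 or WT Th2 sample 2 or 3. In Th17, 3 rose and 3 fell, while 39.1% of all genes changed (20.3% higher and 18.8% lower). Il12rb2 (2.27), Hlx (0.61) and Runx3 (0.43) rose, and Tbx21 (-0.91), Stat4 (-0.51) and Hopx (-0.44) fell. All WT Th17 and WT Th0 samples lay under 5.26 for Hlx, which was tested because of other groups. The calls for Hopx and Stat4 were lost without WT Th17 sample 1 (adjusted p = 0.21 and 0.12), and that for Hopx also without WT Th0 sample 2 or 3 or WT Th17 sample 3. In Treg, 1 rose and 6 fell, while 41.6% of all genes changed (19.2% higher and 22.4% lower). Il18r1 rose (1.22), and Il12rb2 (-4.40), Tbx21 (-1.29), Il18rap (-0.88), Hopx (-0.68), Stat4 (-0.49) and Runx3 (-0.31) fell. The calls for Stat4 and Il18rap in Treg were lost without WT Th0 sample 3 or WT Treg sample 1, and that for Runx3 without WT Th0 sample 1 or 2 or WT Treg sample 2 or 3.

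Other genes of the Th1 pathway were followed as a list of 29, of which 25 were measured and tested (the rest were not analysed here). The list was written with earlier results of these data known. In KO Th1 cells 6 rose and 7 fell relative to WT, with a median of -0.12 against -0.03 over all genes, of which 17% rose and 23.7% fell. The rises were led by Ifngr2, a chain of the interferon gamma receptor (1.36, SE 0.16), Runx1 (1.06, SE 0.11) and the chemokine receptor gene Cxcr3 (0.85, SE 0.17). The falls were led by Irf8 (-1.31, SE 0.39), Il12rb1 (-1.03, SE 0.24) and Lta, which encodes lymphotoxin alpha (-0.95, SE 0.37). Cxcr3, a target of T-bet, stood at 9.74, 9.68 and 9.17 in KO Th1 samples, against 8.88, 8.50 and 8.68 in WT Th1 samples, with no overlap, unlike Ifng. In Th1, 52.7% of all genes tested did not overlap between KO and WT. In Th1 over Th0, 6 of the 25 rose and 1 fell in KO cells, and 10 rose and 2 fell in WT cells. Cxcr3 rose by 3.787 in KO and 2.999 in WT cells, Irf8 by 2.33 in KO and 2.03 in WT cells, and Ifngr2 fell by 1.28 in KO and by 2.34 in WT cells. In Th0 the list gave 6 rises and 4 falls between KO and WT, where 16.8% of all genes rose and 19.6% fell, and in naive cells Bhlhe40 was the only gene to pass (0.90, adjusted p = 0.03). In Th2 there were 1 rise (Ifngr1, 0.88) and 1 fall (Il27ra, -0.90), and in Th17 and Treg 1 fall each, again Il27ra (-0.46 in Th17 and -0.95 in Treg). Il27ra, a chain of the interleukin-27 receptor, thus fell in KO cells in all 5 stimulated conditions.

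Factors that oppose the Th1 program were a list of 9, of which 7 were measured (the rest were not analysed here). This list, too, was written with earlier results of these data known, so its counts are descriptions. In KO Th1 cells 4 of the 7 rose relative to WT and 0 fell, with a median of 0.60 against -0.03 over all genes, of which 17% rose and 23.7% fell. Foxp3, the Treg factor, stood at 10.279, 9.786 and 10.997 in KO Th1 samples, against 8.173, 8.728 and 8.005 in WT Th1 samples. Bcl6, which encodes a repressor that drives follicular helper cells, stood at 9.27, 8.98 and 9.06 in KO Th1 samples, against 7.93, 7.68 and 8.29 in WT. Neither gene overlapped between genotypes, as for 52.7% of all genes tested in Th1. Gata3, the Th2 factor (0.71), and Socs3 (0.60) were the other 2 that rose. Bcl6, Socs3 and Gata3 also rose in KO Th0 cells (1.65, 0.63 and 0.55), where 16.8% of all genes rose, and Bcl6 and Socs3 in KO Th2 cells, where 7.51% rose. In KO Th17 cells Bcl6 (1.31), Zfpm1 (0.59) and Socs3 (0.58) rose and Sox4 fell (-0.82), where 4.03% of all genes rose and 4.18% fell. In Treg conditions Socs3 fell (-0.56) and no factor of the list rose.

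For 4 genes, the most similar other genes were ranked among 11838 by Pearson correlation over the 12 group means, a description in which groups share genotypes and conditions. Tbx21 was closest to Ly6a2 (r = 0.97), Cldnd2 (0.96) and Ifng (0.96), and Ifng to Samd3, Cldnd2 and P2rx3 (0.99 each). By Spearman's rank correlation Ly6a2, Cldnd2 and Ifng came only 868th, 1522nd and 396th for Tbx21 (rho = 0.55, 0.45 and 0.62). Samd3, Cldnd2 and P2rx3 came 1088th, 127th and 1033rd for Ifng (0.55, 0.78 and 0.55). Samd3 stood at 4.83, 5.72 and 5.77 in KO Th1 samples, against 6.76, 6.54 and 7.05 in WT Th1 samples, and no sample of another group exceeded 4.40. Eomes was closest to the interferon-inducible gene Ifi204 (0.89), Ptpn14 (0.89) and Vax1 (0.88), which came 69th, 1141st and 152nd by rank correlation. Ifi204 stood at 3.5637, 6.0006 and 5.9643 in KO Th1 samples, against 9.45, 8.49 and 8.95 in WT Th1 samples. Il12rb2 was closest to Rnf157 (0.98), Acadl (0.97) and the chemokine receptor gene Ccr2 (0.97). By rank correlation Rnf157 was again first for Il12rb2 (Spearman's rho = 0.99), while Elovl7, Abcf2 and Paip2b came first for Tbx21, Ifng and Eomes (0.92, 0.95 and 0.91).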

How the data were processed

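RNA of 36 mouse CD4 T cell samples was measured on Affymetrix arrays. The deposited values are log2 expression, made by the authors with RMA from the oligo package in R 3.1.0, per the submitters' processing notes. RMA corrects background, equalises the distributions of the arrays and summarises probes, so levels are relative within the table. Array files were not used here. Of 41345 probe sets, 23521 had 1 symbol, 1814 several and 16010 none. For the 1082 genes with several probe sets, the one with the highest mean was used, which gave 22180 genes.

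The 12 group means were estimated together from all 36 samples with limma 3.58.1 in R 4.3.3 (24 residual degrees of freedom), using log2 values above 5.26 in at least 3 samples as the filter. It gave 22 comparisons, each adjusted by Benjamini-Hochberg over 13082 genes and called at an adjusted p under 0.05. Only the test of KO against WT in Th1 was tried on simulated data, with independent samples and, for each gene, the same spread in every group. That setting leaves out the shared deviations and unequal spread of the real samples. The 10 genes and all gene lists were chosen with earlier results of these data known. Genes outside the lists were named only as the 3 most similar to Tbx21, Ifng, Eomes and Il12rb2 over the group means, or the first by rank correlation. Xist, used to tell sex, is the exception. Start regions came from RefSeq (GRCm38.p6), where all 10 genes matched. Figures were drawn with matplotlib 3.10.9.

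Replicate numbers paired samples where all 3 same-numbered pairs deviated together (r over 0.1), which held for Th1 and Th0 of either genotype, for WT Th1 and Treg and for WT Th2 and Th0, and for no comparison of KO with WT. Alternatives covered the filter, scaling, prior, samples fitted, replicate block, sex and leaving out samples.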

Additional observations from a re-analysis of the deposited data

Results flagged for a closer look

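With limma, the KO effect in 4 stimulated conditions was each tested minus that in Th0. The difference passed for 2 of the 10 genes in Th1, 1 in Th2, 1 in Th17 and 3 in Treg. Of all genes, 0.589% passed for Th1, 10.2% for Th2, 15.6% for Th17 and 27% for Treg, each minus Th0. The counts for Th2, Th17 and Treg are near these shares. For Eomes the effect was -2.55 in Th1 and -0.09 in Th0, a difference of -2.46. For Hopx it was -0.85 in Th1 and 0.77 in Th0, a difference of -1.62. For Il18rap it was 1.45 in Th17 and -0.67 in Th0, a difference of 2.12. For Stat4 it was -0.43 in Treg and 0.64 in Th0, a difference of -1.07. For Il12rb2 it was 1.33 in Treg and -0.10 in Th0, a difference of 1.43. For Il18r1 it was -0.63 in Th2, -0.47 in Treg and 0.52 in Th0, and the differences were -1.16 for Th2 and -0.99 for Treg. The calls for Il12rb2 in Treg and for Il18r1 in Th2 and Treg were each lost on leaving out single samples. All of these share the Th0 samples of both genotypes.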

How the results depend on the processing

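Of 220 results (10 genes in 22 comparisons), none that passed changed direction under any alternative run. KO against WT in Th1 gave 3 genes in place of 5 when only those groups were fitted. In Th17, 4 became 2 without the filter and 2 with median centering. The KO effect in Th0 minus naive gave 1 when only those groups were fitted, that in Th2 minus Th0 gave 0 so fitted and 2 with sample 1 of KO Th0 and KO Th1 left out, and that in Th17 minus Th0 gave 2 under the stricter filter, which Hlx did not pass. Leaving out 1 sample gave 2 to 5 genes for KO against WT in Th2, 2 to 3 in Th17 and 0 to 1 in Treg. It gave 0 to 1 for Th2 minus Th0 and 1 to 2 for Th17 minus Th0. With a replicate block, 6 results newly passed and 0 were lost: Il18r1 in Th0 (adjusted p = 0.044) and Th2 (0.03), Tbx21 in Th1 (0.038), in KO Th0 over naive (0.049) and in Treg minus Th0 (0.028), and Hlx in KO Th1 over Th0 (0.05). With the block as random (correlation 0.0597), 3 newly passed, Il18r1 in Th2, Hlx in KO Th1 over Th0 and Tbx21 in Treg minus Th0 (0.049, 0.045 and 0.048), and Runx3 in Th17 was lost (0.051). Median centering moved the median of all genes to -0.11 in WT Th2 and -0.12 in WT Th17 over Th0. Hlx lay near the table-wide median, which limits its precision.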

Other observations

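Genes from the same chromosomal regions as some of the 10, not all of them direct neighbors, were followed as a list of 9, of which 7 were measured and 5 tested. In Th17 conditions Il1r1, an interleukin-1 receptor gene of the cluster that holds Il18r1 and Il18rap, stood at 9.88, 9.67 and 9.77 in KO samples, against 7.31, 7.49 and 6.82 in WT samples. The difference was 2.57 (adjusted p = 1.8e-10), and it was the only gene of the list to pass there. Tbkbp1, the neighbor of Tbx21, rose in Th1 over Th0 by 1.81 in KO and 2.42 in WT cells.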
